A study of Rattus norvegicus with 4 samples.

Results

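GABA-A receptors are chloride channels opened by the transmitter GABA, and the genes described here encode 7 of their subunits: Gabra2, Gabra3, Gabra4 and Gabra5 (alpha), Gabrb1 and Gabrb2 (beta) and Gabrd (delta). They were found by gene symbol, and all 7 were among the 17 GABA-A subunit genes and the 17445 rows listed. RNA-seq had been made from the hippocampus of Wistar rat pups on postnatal day 1, with 1 library for each of 4 groups: control males, BPA males, control females and BPA females. Where 4 values stand in 1 sentence, they are in this order. The dams received bisphenol A (BPA), a plasticizer with estrogenic activity, at 5000 µg/kg body weight every day from gestation day 1 until delivery, or vehicle, by gavage. BPA was dissolved in ethanol and diluted in corn oil, all 4 groups came from gavaged dams, and dosing ended at delivery. Each library came from 3 pooled hippocampi, so pups within a group were not measured separately. Per the study, the pups of a group were from independent litters. The comparisons asked whether prenatal BPA was followed by other transcript levels in newborn males and females.

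A GABA-A receptor is a ring of subunits, most often made of alpha and beta subunits with a gamma or a delta subunit. The alpha subunit sets much of the response to GABA and to benzodiazepines, beta subunits are needed for assembly and transport to the surface, gamma subunits hold the receptor at synapses, and delta marks receptors outside synapses. In the newborn hippocampus alpha2 and alpha5 are prominent and delta is still low, and GABA can depolarize young neurons because their chloride content is high.

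Levels are given in FPKM, in which the fragments of a gene are divided by its length and by the size of the library, so that genes of different length can be compared. Low values lay on steps of whole fragments, from which 8880000, 8760000, 8540000 and 8760000 fragments were estimated for the 4 libraries. A whole number was met within 0.15 fragments by 95% to 98.6% of the low values, against 30% for values spread evenly. The intervals that follow are exact 95% Poisson intervals on these estimated fragments and cover counting error only, since PCR copies were not marked and no group has a replicate. Hippocampal identity was plain from Neurod6, a transcription factor of pyramidal neurons, at 135 to 161 FPKM and from the vesicular glutamate transporter Slc17a7 at 108 to 138.1 FPKM. Emx1, another gene of that list, was not listed by symbol. The libraries did not hold equal shares of neighbouring tissue: the 10 choroid plexus markers summed to 271, 714, 13.0 and 49.05 FPKM, and the 12 markers of meninges and vessel wall to 141, 129, 423 and 116. Ttr alone gave 256.46, 689.51, 3.96 and 42.39 FPKM of the choroid plexus sums. On log2(FPKM + 1), the 7 tested choroid plexus markers had a median difference between BPA and control of 0.628 in males and -0.119 in females. Whether these tissues had any part in the subunit values was not tested. In bulk tissue, fewer cells of a type and less RNA per cell cannot be told apart.

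The promoters of 4 subunits are shown first, because 2 of these genes had the most alike profile over the libraries (Gabra3 and Gabra4) and 2 carried the same rare motif (Gabrb1 and Gabrb2). The sequences are the 250 bases before the RefSeq start in the assembly GRCr8, which is not the build named for the files, and capitals mark CGCATGCG, the core bound by nuclear respiratory factor 1 (NRF1). Entries were found for 6 of the 7 genes. The windows are chr14:36902894-36903143 (minus strand) for Gabrb1, chr10:27439543-27439792 (plus strand) for Gabrb2, chrX:155543871-155544120 (minus strand) for Gabra3 and chr14:36944497-36944746 (plus strand) for Gabra4, each written 5′ to 3′ along its gene.
Gabrb1 promoter: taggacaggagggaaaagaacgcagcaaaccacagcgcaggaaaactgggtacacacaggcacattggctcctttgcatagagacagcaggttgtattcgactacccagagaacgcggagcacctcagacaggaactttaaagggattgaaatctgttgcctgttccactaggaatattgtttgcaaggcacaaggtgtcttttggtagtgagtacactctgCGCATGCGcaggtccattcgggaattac
Gabrb2 promoter: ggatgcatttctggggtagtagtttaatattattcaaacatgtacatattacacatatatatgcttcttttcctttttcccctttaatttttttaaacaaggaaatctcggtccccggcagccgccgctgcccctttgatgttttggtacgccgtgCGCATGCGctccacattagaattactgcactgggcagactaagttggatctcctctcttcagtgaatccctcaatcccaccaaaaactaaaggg
Gabra3 promoter: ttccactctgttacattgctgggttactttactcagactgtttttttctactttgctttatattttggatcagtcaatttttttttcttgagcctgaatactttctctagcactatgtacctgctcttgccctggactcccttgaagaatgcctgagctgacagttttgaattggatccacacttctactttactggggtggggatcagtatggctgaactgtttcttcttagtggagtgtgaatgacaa
Gabra4 promoter: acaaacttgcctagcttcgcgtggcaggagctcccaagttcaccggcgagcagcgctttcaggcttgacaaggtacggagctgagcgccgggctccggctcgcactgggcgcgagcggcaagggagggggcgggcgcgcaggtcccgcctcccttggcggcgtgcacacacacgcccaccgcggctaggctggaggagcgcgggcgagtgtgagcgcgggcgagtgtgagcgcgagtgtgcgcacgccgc

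On either strand, CGCATGCG stood in 1.47% of all 33469 promoters of this length and in those of Gabrb1 and Gabrb2, at positions -28 and -94 from the start. The longest stretch that these promoters shared on the same strand was TGCGCATGCGC, 11 bases that include the core. The full estrogen response element GGTCANNNTGACC (0.0239% of promoters), its half-site GGTCA (35.4%), which the full element contains, and the cyclic AMP response element TGACGTCA (1.59%) were in none of the 6. The GC box GGGCGG, present in 30.5% of promoters, was found before Gabra4, Gabra5 and Gabrd. The base composition differed widely, from 40.4% G and C before Gabra3, 43.2% before Gabrb2 and 49.2% before Gabrb1 to 71.6% before Gabra4, 74% before Gabrd and 76.4% before Gabra5, around a median of 51.2% over all promoters. A match is a run of letters and not a measured binding site.

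Gabra5 and Gabra2 were the highest of the 7 subunits in every library and Gabrd was the lowest. Gabra5 encodes the alpha5 subunit, which is concentrated in the hippocampus and carries much of its tonic inhibition. Its level was 57.8, 56.2, 58.84 and 58.75 FPKM. It varied least of the 7, with 1.05-fold between the highest and the lowest library, and the counting intervals of all 4 libraries overlapped. The BPA to control ratio of Gabra5 was 0.973 (counting interval 0.902 to 1.05) in males and 0.999 (0.926 to 1.08) in females.

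Gabra2, the main alpha subunit of many synapses in the immature forebrain, was at 44.3, 43.9, 53.3 and 46.3 FPKM. The female control library stood above the others. In males the BPA to control ratio of the FPKM was 0.991 (counting interval 0.934 to 1.05), and in females it was 0.868 (0.821 to 0.919), where the interval lay below 1. On log2(FPKM + 1), the scale of all differences that follow, the female difference was -0.20 and did not reach the size of 0.25 that was used to count differences within a sex.

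Gabra3 encodes alpha3, an early subunit that becomes less frequent as the brain matures. The male control library had 10.5 FPKM of Gabra3, and the male BPA, female control and female BPA libraries had 13.45, 13.77 and 13.64. Gabra4, which encodes the alpha4 subunit of extrasynaptic receptors, had the same order, with 8.75 FPKM in male control and 11.95, 12.69 and 12.04 in the others. For both genes the male control library was the one that stood apart, and the 3 others lay together. The male BPA to control ratio of the FPKM was 1.28 (counting interval 1.09 to 1.51) for Gabra3 and 1.37 (1.09 to 1.715) for Gabra4, and the log2 differences were 0.33 and 0.41. In females the ratios were 0.991 (0.851 to 1.15) and 0.949 (0.772 to 1.17), with log2 differences of -0.01 and -0.07. The difference between control males and control females was -0.36 for Gabra3 and -0.49 for Gabra4, against -0.02 and -0.01 between BPA males and BPA females. The male differences and the differences between control males and control females all rest on the 1 male control library.

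Gabrb1, a beta subunit found in hippocampal neurons and also in glia, was the 1 member that was lower by more than 0.25 in both sexes. Its level was 8.64, 6.37, 8.70 and 6.0 FPKM. The BPA libraries were both below the control libraries, with means of 6.185 and 8.67 FPKM. The BPA to control ratio of Gabrb1 was 0.737 (counting interval 0.568 to 0.955) in males and 0.690 (0.528 to 0.899) in females, and the log2 differences were -0.39 and -0.47. These levels rest on an estimated 143, 105, 141 and 98 fragments. Only Gabrd and, in the control males, Gabra4 (137 fragments) rested on fewer.

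Gabrb2 encodes beta2, the beta subunit of most receptors in the adult brain. Its level was 18.7, 16.1, 21.6 and 22.2 FPKM. The male libraries both lay below the female libraries, with means of 17.4 and 21.9 FPKM, and the male BPA library was the lowest. The BPA to control ratio of Gabrb2 was 0.857 (counting interval 0.785 to 0.936) in males and 1.03 (0.95 to 1.11) in females, with log2 differences of -0.21 and 0.04.

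Gabrd, the delta subunit that joins alpha4 in the dentate gyrus later in life, was near the limit of detection at 0.52, 0.59, 0.73 and 0.72 FPKM. These levels stand for 8 to 11 estimated fragments, and the counting intervals of the 4 libraries overlapped over most of their width. The BPA to control ratio of Gabrd, 1.14 in males and 0.986 in females, had counting intervals of 0.388 to 3.39 and 0.386 to 2.52, so no difference was detectable at this depth. With a mean under 1 FPKM it did not enter the tests.

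**Figure D1:**
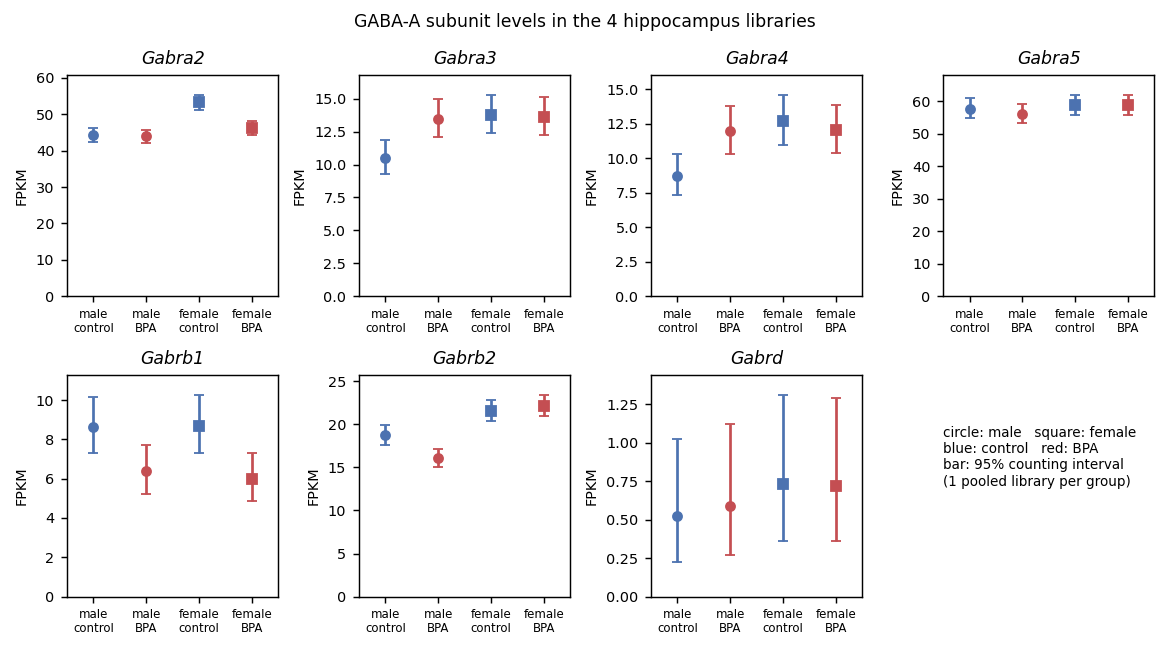
Level of each of the 7 subunits in FPKM (vertical axis, from 0, own scale per panel) in the 4 libraries, with circles for males, squares for females, blue for control and red for BPA; bars are exact 95% counting intervals. Gabrb1 is lower in both BPA libraries, Gabra3 and Gabra4 are lowest in male control, and Gabrb2 is lowest in the males.

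To compare BPA with control over both sexes, limma was fitted on log2(FPKM + 1) over the 13542 rows with a mean of at least 1 FPKM, with 2 BPA libraries against 2 control libraries. At a Benjamini-Hochberg adjusted p under 0.05 limma called 0 rows (0%), and therefore none of the 6 subunits tested. At an unadjusted p under 0.05 it gave 637 rows, 3.11% of all rows lower and 1.6% higher in BPA. This split depended on the scaling. The 421 lower and 216 higher rows became 343 and 284 with quantile normalization and 360 and 264 with median centring. Gabrb1 was the 1 subunit among the 637 rows. Its log2 difference was -0.43 (SE 0.14), with an adjusted p of 0.973 in limma, and 1.57% of the rows had a smaller p. The difference was thus larger than the spread between these libraries and did not hold over the number of rows tested. For Gabra2, Gabra3, Gabra4, Gabra5 and Gabrb2 the limma difference was -0.11, 0.16, 0.17, -0.02 and -0.09, each with an SE of 0.10 to 0.18 and an adjusted p of 0.973 to 0.990. An exact permutation test of a single gene, 2 against 2 libraries, cannot go below p = 0.333.

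Within each sex there was 1 library per group, so no test was made and a log2 difference past 0.25 was counted. In males Gabrb1 was lower and Gabra3 and Gabra4 were higher by this measure, where 12.6% of all rows were lower and 11.9% higher. In females Gabrb1 was lower and no member was higher, where 21.2% of rows were lower and 10.9% higher. The female split depended on the scaling: 1481 rows higher and 2874 lower became 1988 and 2028 with quantile normalization and 2101 and 2234 with each library centred on its median, and the members counted were the same 1 in each. Gabrb1 was the 1 member lower by over 0.25 in each sex, a pattern that 4.76% of all rows had, and 5.46% of the 1942 genes of like level (a mean of 5 to 10 FPKM). It was also the 1 member of 6 with both BPA libraries below both controls, which 19.9% of all rows had. The median log2 difference over the 6 members tested was -0.026 in males and -0.041 in females, beside -0.002 and -0.038 over all rows. The family median thus lay near that of all rows, while Gabrb1, Gabra3 and Gabra4 lay away from it in different directions.

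**Figure D2:**
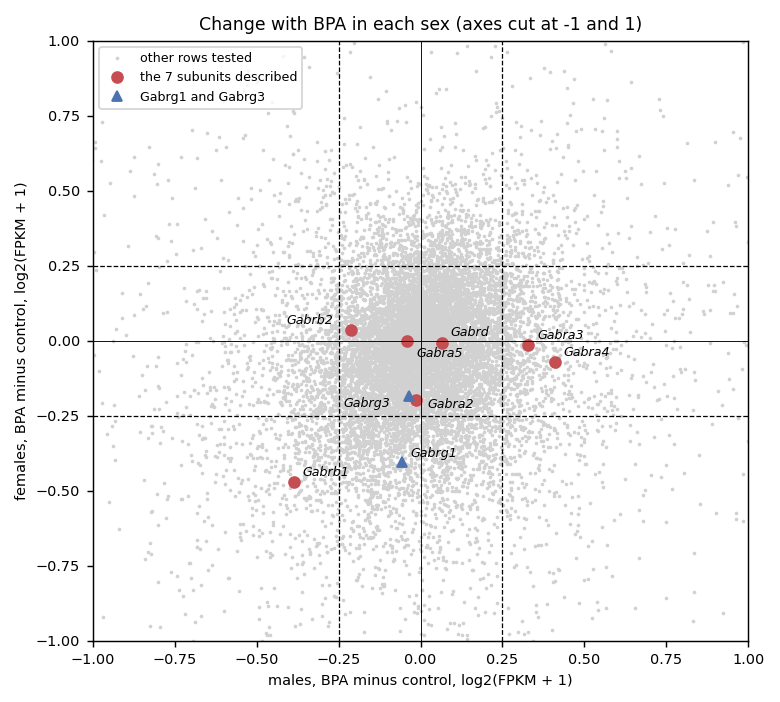
Difference between BPA and control on log2(FPKM + 1) in males (horizontal axis) and females (vertical axis) for the 7 subunits (red circles), Gabrg1 and Gabrg3 (blue triangles) and all other rows tested (grey); dashed lines mark 0.25 and rows outside -1 to 1 are not drawn. Gabrb1 lies at -0.39 and -0.47, and Gabra3 and Gabra4 lie at 0.33 and 0.41 in males and close to 0 in females.

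Between the sexes, limma with 2 male against 2 female libraries called 1 row of 13542 (0.00738%) at an adjusted p under 0.05, and it was no member. At an unadjusted p under 0.05, 3.88% of rows were lower and 6.76% higher in males, and Gabrb2 was the 1 member among them. Its male minus female difference was -0.32 (SE 0.11), with an adjusted p of 0.397 in limma. The other members had differences of -0.17 for Gabra2, -0.19 for Gabra3, -0.25 for Gabra4, -0.05 for Gabra5 and 0.03 for Gabrb1, with adjusted p of 0.573 to 0.967 in limma. Both male libraries lay below both female libraries in 5 of the 6 members tested, all but Gabrb1, where 19.8% of all rows did. With Gabrd, which had the same order at 8 to 11 fragments, the count was 6 of 7, and 18.5% of rows did so without the filter on level. The count of 5 of 6 was the same with quantile normalization, median centring, a mean of at least 5 FPKM and summed gene models. The genes were measured in the same 4 libraries, so the count does not add replicates, and within the BPA libraries alone the male minus female difference of these 5 was small for 4, from -0.01 to -0.07, and -0.44 for Gabrb2.

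The neighbouring genes on chromosome 14 make the contrast between members visible. In GRCr8 Gabrb1 and Gabra4 are next to each other and are transcribed in opposite directions away from each other, and Gabra2 and Gabrg1 follow beyond Cox7b2. In males Gabrb1 was lower in BPA by a log2 difference of -0.39 while Gabra4 was higher by 0.41. Gabra2 was level in males at -0.01, and Gabrg1, a gamma subunit, was at -0.06. In females the same genes were at -0.47 for Gabrb1, -0.07 for Gabra4, -0.20 for Gabra2 and -0.41 for Gabrg1. On chromosome 1, Gabra5 and its neighbour Gabrg3 differed by -0.04 and -0.04 in males and by -0.002 and -0.184 in females. Gabrb2 lies beside Gabra6 on chromosome 10, Gabra3 is on chromosome X near Gabrq and Gabre, and Gabrd is on chromosome 5.

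Centred on its own mean, each member had a profile of 4 values. Those of Gabra3 and Gabra4 lay closest together, at a distance of 0.09 log2 units over the 4 libraries. Gabra4 and Gabrb1 lay farthest apart at 0.69, and Gabra3 and Gabrb1 were at 0.64. Gabra5 and Gabrd were at 0.13 from each other. The mean profile of the 7 members was -0.09, -0.07, 0.13 and 0.03. Of 8355 genes with a mean of at least 5 FPKM outside the family, the nearest to it was Scn2a, a sodium channel of axons, at 23.2, 23.8, 27.6 and 25.3 FPKM and a distance of 0.0204. Tmx4 (0.0215), a thioredoxin-related membrane protein, Msn (0.0217), the cytoskeleton linker moesin, and Kdelr1 (0.0232), a retrieval receptor of the secretory pathway, were among the 4 that came next. Over 4 libraries such likeness is a weak description, and it was not tested.

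**Figure D3:**
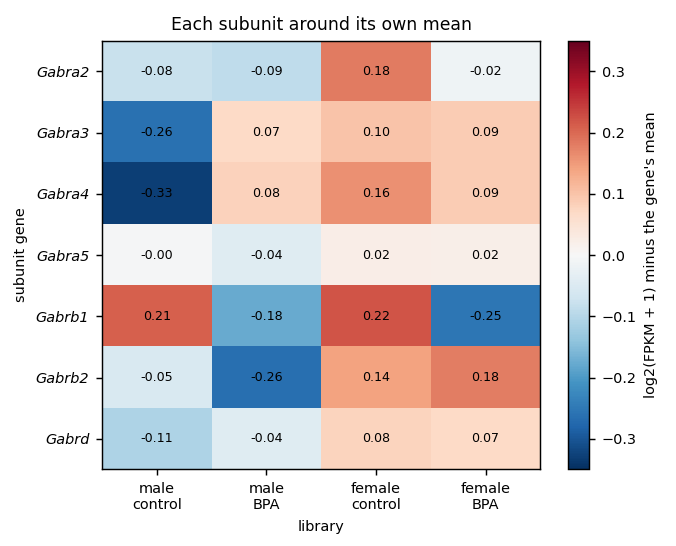
Level of each subunit in each library as log2(FPKM + 1) minus the gene's own mean (colour and printed value, red above and blue below the mean). The rows of Gabra3 and Gabra4 are alike, with male control lowest at -0.26 and -0.33, and Gabrb1 is above its mean in both controls and below it in both BPA libraries.

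Among the other subunits, Gabrg1, a gamma subunit of the immature brain and of glia, was at 18.5, 17.8, 23.0 and 17.1 FPKM. The Gabrg1 ratio of BPA to control was 0.744 (counting interval 0.629 to 0.880) in females, its BPA libraries were both below the controls, and limma gave it an adjusted p of 0.973 over both sexes. Gabrg3 had 3.55 to 4.30 FPKM, and Gabrq, Gabre, Gabrr1, Gabrr2 and Gabrr3 each stayed below 1 FPKM in every library. Gabra6 and Gabrp were not listed.

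Shares of the summed FPKM show the makeup of the alpha members. Among Gabra2, Gabra3, Gabra4 and Gabra5, Gabra5 took 47.6%, 44.8%, 42.5% and 44.95%, and Gabra2 took 36.5%, 35%, 38.45% and 35.4%. Gabra5 was thus the leading transcript of the 4 in every library, at 1.303, 1.279, 1.104 and 1.27 times the level of Gabra2. The smaller rest differed in the control males, where Gabra3 took 8.65% and Gabra4 7.21%, against 9.94% to 10.7% and 9.16% to 9.52% in the other libraries. The level of Gabrb2 relative to Gabrb1 was 2.17, 2.52, 2.48 and 3.70, highest in the BPA females and higher with BPA in each sex. Transcript shares are not receptor shares, and they depend on the length of each gene model, which for Gabra4, Gabrb1 and Gabrd was 1843, 1944 and 1799 bases, against 6753 for Gabrb2.

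The genes around the receptor were counted in the same way, and no gene of these lists passed an adjusted p under 0.05 in limma. Of 22 tested scaffold and trafficking genes, which bring receptors to the synapse and hold them there, 1 was lower and 2 were higher by over 0.25 in males and none was lower and 1 was higher in females, where 12.6% and 11.9% of all rows in males and 21.2% and 10.9% in females were so. Gephyrin (Gphn), the scaffold of inhibitory synapses, was at 26.6, 25.5, 27.7 and 24.45 FPKM. The 10 tested genes of GABA synthesis, transport and breakdown had medians of -0.15 in males and -0.20 in females, with 3 and 4 lower by over 0.25 and none higher, where 12.6% and 21.2% of all rows were lower. Abat, the enzyme that breaks down GABA, was the 1 of them lower by over 0.25 in both sexes, as were 4.76% of all rows, at 16.2, 12.7, 16.2 and 11.8 FPKM (adjusted p = 0.973 in limma). The synthesis enzyme Gad1 was at 28.1, 24.5, 26.9 and 21.4 FPKM.

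Of 9 tested chloride transport genes, Slc12a5 was lower by over 0.25 in both sexes, as were 4.76% of all rows, at 22.0, 18.1, 20.6 and 14.4 FPKM (adjusted p = 0.973 in limma). It encodes KCC2, the exporter that makes GABA inhibitory as neurons mature. The importer Slc12a2 (NKCC1) was at 10.6, 11.4, 10.7 and 12.6 FPKM, and no gene of the list was higher by over 0.25 in either sex. Of 4 tested GABA-B receptor genes, 1 was higher in males (Kctd16) and 2 were lower in females (Kctd8 and Kctd16), at levels of 1.44 to 4.68 FPKM. Gabbr1 and Gabbr2 differed by -0.096 and 0.03 in males and by 0.018 and 0.02 in females. Of 3 tested genes of neurosteroid synthesis 1 was lower in males. Over all rows, 11.9% were higher in males, 21.2% lower in females and 12.6% lower in males.

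Markers of several cell types had medians on the same side as Gabrb1. Of 11 astrocyte and radial glia markers, 8 had both BPA libraries below both controls, where 19.9% of all rows did, and the summed level was 1587, 1424, 1568 and 1438 FPKM. Of the 11, 3 were lower by over 0.25 in both sexes, as were 4.76% of all rows. These were the water channel Aqp4 at 35.8, 24.9, 37.7 and 27.8 FPKM, the glutamate transporter Slc1a2 at 52.85, 38.83, 44.53 and 34.55, and the radial glia factor Hes5 at 10.6, 6.26, 6.33 and 3.92. On the other side, Sox9 was higher in both sexes (0.096 and 0.038). Aldh1l1 was higher in males (0.328) and at -0.057 in females. The 8 oligodendrocyte lineage markers summed to 144.5, 111, 119 and 99.4 FPKM, and of them Olig1 and Gpr17 were lower by over 0.25 in both sexes, as were 4.76% of all rows. By contrast, the 9 general neuron markers summed to 2952, 3005, 2842 and 3184 FPKM, and their medians were -0.024 in males and 0.005 in females. The part of the glial markers in the Gabrb1 values was not tested.

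The other marker lists are given by their medians in males and females. The 15 tested interneuron markers had medians of -0.004 and -0.077 and summed to 492, 532, 447 and 407 FPKM. Those of hippocampal excitatory neurons had medians of 0.03 and -0.07, with Prox1, a dentate granule cell factor, at 12.4, 10.2, 12.8 and 7.61 FPKM. Cycling cell markers had medians of -0.17 and -0.18, with Top2a at 11.0, 8.89, 11.9 and 9.76 FPKM. The meningeal genes Col1a1, Col3a1 and Lum and the pericyte gene Rgs5 were also lower by over 0.25 in both sexes, Ttr and Sostdc1 of choroid plexus and Ahsp of red blood cells were higher, and the 7 tested microglia markers had medians of 0.23 in males and -0.12 in females. The 7 tested markers of thalamus or hypothalamus had medians of -0.09 and -0.26, and Tcf7l2, a thalamic factor, stayed at 1.16 to 1.65 FPKM. Other genes of this list stood higher, with Slc17a6 at 13.73 to 18.25 FPKM and Zic1 at 10.96 to 21.9. Calb2, which is also in the interneuron list, was at 37.54 to 46.87 FPKM.

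**Figure D4:**
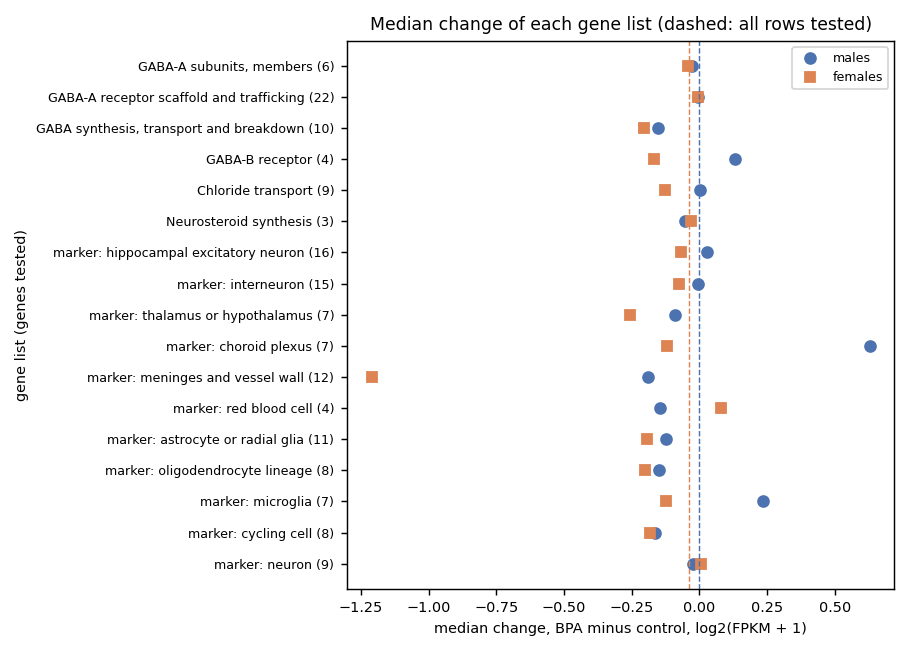
Median difference between BPA and control on log2(FPKM + 1) (horizontal axis) for each gene list (vertical axis, genes tested in parentheses) in males (blue circles) and females (orange squares); dashed lines are the medians of all rows tested. The 6 subunits lie at -0.03 and -0.04, close to the lines, and meningeal markers lie farthest from them at -1.21 in females.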

How the data were processed

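RNA-seq of 4 hippocampus libraries was examined. The authors deposited FPKM per gene model, 1 table per library, to 2 decimals and with 0.01 as the lowest value. The submitters' processing notes name HISAT 0.1.6, Bowtie2 2.2.5, RSEM and the build rn6 without their roles, and the source of the new gene models is not given in the sources used here. Members, lists, comparisons and tests were chosen with earlier results of these data known. Tables were joined on row names (16375 rows in all 4 files). Rows with a mean of at least 1 FPKM (13542) were compared on log2(FPKM + 1), which understates differences of low genes, in R 4.3.3 by limma 3.58.1 (two-sided, moderated by eBayes with a trend, no covariate, Benjamini-Hochberg over all rows, threshold 0.05). FPKM are not counts, so no count test was run. P-values measure the spread between libraries of which each treatment has 1 per sex. Within a sex, 0.25 on this scale was the size counted. Depth was estimated from gene models of 300 to 1500 bases. Genes named were the 7 members, every other subunit listed, list genes past 0.25 in the same direction in both sexes, and the 5 nearest profiles, except that some genes under this rule are not reported here; other genes named (Gphn, Gad1, Slc12a2, Neurod6, Slc17a7, Tcf7l2 and Emx1) were chosen after their values were seen. Tables and plots were made in Python 3.11.15 (scipy 1.17.1, matplotlib 3.10.9, pandas 2.3.3, numpy 2.4.6). The limma and depth steps were tested on simulated data. Alternatives were quantile normalization, median centring, a pseudocount of 0.1, a mean of at least 5 FPKM or no filter, sex or treatment as a covariate, leaving out each library, and new gene models summed with the gene of the same protein name (2310 rows joined into 850 groups). RefSeq promoters and neighbours are of GRCr8, and no coordinates were converted.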

Additional observations from a re-analysis of the deposited data

Results flagged for a closer look

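Gabra3 and Gabra4 were singled out because their differences between BPA and control had opposite signs in males and females and lay at least 0.25 log2 units apart. The male difference minus the female difference was 0.342 for Gabra3 and 0.479 for Gabra4. With 1 library per group this difference was not tested. The female difference of Gabra3 lay close to 0 and ran from -0.01 to 0.04 over 6 other settings of scaling, pseudocount, filter and gene models, so its sign was not stable, and that of Gabra4 ran from -0.07 to -0.01.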

How the results depend on the processing

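No member was called at an adjusted p under 0.05 in either limma comparison under any alternative run, and the members past 0.25 stayed 3 in males and 1 in females. The Gabrb1 difference over both sexes ran from -0.48 to -0.39 over 11 alternatives (limma p 0.0152 to 0.0847, adjusted p 0.478 to 1), and the Gabrb2 difference between the sexes from -0.42 to -0.21 (limma p 0.0169 to 0.171, adjusted p 0.236 to 0.948). Rows called for BPA were 2 with sex as a covariate and 0 to 3 with 1 library left out (3 without female control, 1 without male BPA). Rows called between the sexes were 2 with median centring, 21 at a mean of at least 5 FPKM, 25 with models summed, 55 with treatment as a covariate and 1 to 2 with 1 library left out (2 without female control). At a mean of at least 5 FPKM, where fewer rows were tested, 1548 rows in males and 2299 in females passed 0.25, against 3324 and 4355. The sign of the limma difference for BPA turned for Gabra5 with median centring (0.002). With 1 library left out, the difference for BPA ran from -0.236 to 0.024 for Gabra2 (above 0 without female control), from -0.022 to 0.339 for Gabra3 and from -0.075 to 0.414 for Gabra4 (both below 0 without male control), from -0.053 to 0.011 for Gabra5 (above 0 without male BPA) and from -0.308 to 0.134 for Gabrb2 (above 0 without male BPA and, at 0.011, without female control). Between the sexes that of Gabrb1 ran from -0.203 to 0.268 (below 0 without female BPA and, at -0.161, without male control). The cause was not tested. In these fits a lone library was assumed to vary like the others.

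BPA and control paired by sex is the fit with sex as a covariate, in which Gabrb1 was at -0.43 with an adjusted p of 0.478 in limma. Pairing by replicate number was not possible because each group has 1 library. The depth limits Gabrd, at 8 to 11 estimated fragments, most.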
